A study of Mus musculus with 8 samples.

Results

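The 10 genes described here mark the macrophages that reside in bone marrow, and they were followed in Ly6G+ marrow neutrophils of mice without the transcription factor ATF3. They are Vsig4, C1qa, C1qb, C1qc, Mertk, Axl, Cd5l, Marco, Adgre1 (also called Emr1) and Vcam1. Every non-control probe whose accession is a RefSeq transcript of one of them was taken, which gave 12 probes out of 55681 on the array, and 10 of the 21251 genes tested. The set was chosen by the difference between genotypes on these same arrays: Vsig4 had passed the threshold, and the 9 others are markers of the same cell type. The genotype differences of the 10 genes are therefore given as a description and support nothing by themselves.

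Groups were 4 ATF3 KO samples and 4 WT samples, all on a C57BL/6 background, with marrow flushed from tibia and femur and the Ly6G+ fraction taken by magnetic beads. Total RNA carried the dye Cy3 and was read on Agilent arrays of a single colour. The labels do not describe the knockout allele, give no age, and do not say whether the samples came from separate animals, so the spread between them may be technical. The description field of 7 samples mentions a week in methylcellulose with 4-OHT, whereas the design text has RNA isolated at once after sorting. The 8 arrays shared 1 slide, with the ATF3 KO samples in its one row and the WT samples in its other, and an effect of the row cannot be told apart from that of the genotype.

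Marrow macrophages clear dying cells, ingest erythroid nuclei, recycle iron from red cells, and anchor the islands in which erythroblasts mature. They find their cargo through complement, through bridging proteins on exposed phosphatidylserine, and through scavenger receptors. Vsig4 (also known as CRIg) is a receptor for the complement fragments C3b and iC3b, and C1qa, C1qb and C1qc encode the chains of C1q, the recognition unit of the classical complement pathway, which macrophages secrete. Mertk and Axl are receptor kinases of the TAM family. Cd5l is a secreted scavenger protein, Marco a scavenger receptor, Adgre1 the F4/80 antigen, and Vcam1 the adhesion molecule that binds the integrin VLA-4. None of these proteins is a marker of neutrophils, the cells the sort was meant to take. ATF3 belongs to the ATF/CREB family, whose members bind the cyclic AMP response element.

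Start regions of 7 of the 10 genes are in the RefSeq table used here (GRCm38.p6), and those of C1qa, Adgre1 and Vcam1 are not. Each window runs from 250 bases before the gene's start to 50 after it. Those of Vsig4, C1qb, C1qc and Cd5l are shown because Vsig4 stood apart from the other genes on the arrays while C1qb and Cd5l ran together most closely, and because C1qb and C1qc are neighbours on chromosome 4. Capitals mark matches on either strand to the core TGACG of the cyclic AMP response element, to the PU.1 motif GAGGAAGT and to TGCTGA, one arm of the Maf recognition element. Vsig4 lies on the minus strand at chrX:96293389-96293688, C1qb on the minus strand at chr4:136886151-136886450, C1qc on the minus strand at chr4:136892865-136893164, and Cd5l on the plus strand at chr3:87357631-87357930.
Vsig4: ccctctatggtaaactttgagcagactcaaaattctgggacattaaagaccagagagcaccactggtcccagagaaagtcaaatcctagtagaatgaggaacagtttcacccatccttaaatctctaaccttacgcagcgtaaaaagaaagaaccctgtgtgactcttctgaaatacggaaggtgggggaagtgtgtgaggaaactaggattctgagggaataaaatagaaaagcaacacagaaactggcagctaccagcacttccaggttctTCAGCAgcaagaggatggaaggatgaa
C1qb: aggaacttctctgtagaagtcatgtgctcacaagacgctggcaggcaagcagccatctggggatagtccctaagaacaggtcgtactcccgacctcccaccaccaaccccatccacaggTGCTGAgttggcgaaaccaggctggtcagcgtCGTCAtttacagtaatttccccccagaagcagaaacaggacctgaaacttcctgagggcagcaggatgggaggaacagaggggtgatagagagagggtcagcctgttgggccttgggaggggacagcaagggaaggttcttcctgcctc
C1qc: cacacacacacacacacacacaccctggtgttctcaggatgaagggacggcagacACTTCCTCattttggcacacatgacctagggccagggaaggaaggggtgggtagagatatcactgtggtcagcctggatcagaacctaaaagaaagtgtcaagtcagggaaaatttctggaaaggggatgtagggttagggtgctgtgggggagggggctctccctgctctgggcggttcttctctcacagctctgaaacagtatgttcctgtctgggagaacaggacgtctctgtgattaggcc
Cd5l: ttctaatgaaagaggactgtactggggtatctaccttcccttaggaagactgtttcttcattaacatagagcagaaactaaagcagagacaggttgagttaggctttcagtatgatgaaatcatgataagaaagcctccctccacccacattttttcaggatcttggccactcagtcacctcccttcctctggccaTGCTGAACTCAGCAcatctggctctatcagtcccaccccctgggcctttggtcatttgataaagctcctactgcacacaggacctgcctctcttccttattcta

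The full cyclic AMP response element TGACGTCA and the AP-1 motif TGANTCA had no match in the 7 windows. They occur in 1.79% and 7.81% of the 32851 windows in the table. The core TGACG, found in 20.8% of windows, matched once among the 7, in C1qb at position −99 relative to the start. The PU.1 motif, named for the myeloid factor that binds it, is present in 3.20% of windows and matched in C1qc. The Maf arm TGCTGA, present in 19.5% of windows, matched once in Vsig4 and in C1qb and on both strands in Cd5l. In Cd5l the arms face each other across 2 bases, from position −54. That arrangement (TGCTGA, any 2 bases, TCAGCA), searched after it had been seen in Cd5l, occurs in 2 of the 32851 windows. These are matches of letters, and binding was not measured.

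All 12 probes were above background on all 8 arrays, so RNA of each of the 10 genes was detected in every sorted sample. Vsig4 had a processed signal of 137 on its lowest array, ATF3 KO replicate 4, where the lowest signal counted as above background was 15.5. No member carried a saturated spot. Values below are log2 processed signal minus the 75th percentile of the array, and a probe's value is compared only with that of the same probe on other arrays. On this scale the median difference of all genes, ATF3 KO minus WT, was −0.11. The 75th percentile itself was 113 to 161 signal units in ATF3 KO arrays and 151 to 216 in WT arrays, and the number of arrays limits every value. In RNA from a mixed fraction, fewer macrophages and less of a transcript per macrophage cannot be told apart. The Atf3 probe averaged 1.24 ± 0.27 in ATF3 KO and 0.73 ± 0.07 in WT (SD, n = 4 each), with limma's adjusted p = 0.121 over all genes. The labels do not say whether it lies in the deleted part, so it does not check the genotype.

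Vsig4 gave 0.71, 0.66, 1.05 and 0.29 in ATF3 KO replicates 1 to 4, against 1.55, 1.66, 1.62 and 1.54 in the WT replicates. The WT arrays lay close together, all ATF3 KO arrays lay below them, and replicate 4 was the lowest. The means were 0.67 ± 0.31 in ATF3 KO and 1.59 ± 0.06 in WT (SD, n = 4 each), a log2 difference of −0.92 (SE 0.15), or 47.1% less signal. The value that brought Vsig4 into the set is limma's adjusted p of 0.0481 over all genes, which ran from 0.0145 to 0.159 over 17 other ways of processing the data and passed in 5 of them. Of the 10 genes, 1 was called lower in ATF3 KO, where 0.08% of all genes tested were and 0.447% were called in either direction. Since this contrast chose Vsig4, nothing is read from that count. By size, its difference ranked 54 among the negative ones.

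The C1q chains showed smaller differences. C1qa gave 4.72, 4.15, 4.61 and 4.38 in ATF3 KO and 4.84, 4.73, 4.99 and 4.87 in WT. The highest ATF3 KO array was 0.011 below the lowest WT array, so the groups were apart by a margin far under the spread within either. C1qb gave 4.78, 4.28, 4.61 and 4.30 in ATF3 KO and 4.85, 4.77, 5.05 and 4.90 in WT. C1qc gave 5.48, 5.08, 5.53 and 5.44 in ATF3 KO and 5.58, 5.51, 5.95 and 5.66 in WT. For C1qb and C1qc the highest ATF3 KO array lay just above the lowest WT array, so the groups overlapped. The log2 differences were −0.39 (SE 0.14) for C1qa, −0.40 (SE 0.13) for C1qb and −0.29 (SE 0.14) for C1qc, and none of the chains passed over all genes.

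The C1qc probe is printed 10 times on each array, which gives the error of a single spot. The SD between its spots was 0.021 to 0.052 on the log2 scale in the ATF3 KO arrays and 0.022 to 0.045 in the WT arrays. The SD between arrays of one genotype was larger, 0.21 in ATF3 KO and 0.19 in WT. Spot-to-spot error was therefore a small part of the spread between samples for this gene.

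The TAM receptors bind Gas6 and protein S, which coat phosphatidylserine on dying cells. Mertk, the receptor macrophages mainly use for this, gave 1.36, 0.98, 0.92 and 1.02 in ATF3 KO and 1.44, 1.27, 1.61 and 1.40 in WT. Axl gave 4.49, 4.00, 4.22 and 4.01 in ATF3 KO and 4.47, 4.35, 4.75 and 4.51 in WT. In both, ATF3 KO replicate 1 lay within the WT range while the other 3 ATF3 KO arrays lay below it. The differences were −0.36 (SE 0.13) for Mertk and −0.34 (SE 0.14) for Axl, neither past the threshold.

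Among the scavenger proteins, Cd5l gave 6.31, 5.74, 6.05 and 5.76 in ATF3 KO and 6.47, 6.38, 6.65 and 6.42 in WT. The groups did not overlap, with a gap of 0.075, and the difference of −0.51 (SE 0.14) was the most negative after Vsig4. Cd5l passed over all genes under 1 of the 17 alternatives, normexp background correction, and only just (limma adjusted p = 0.04997, range 0.04997 to 0.316 over the alternatives). Marco gave 2.98, 2.26, 2.37 and 2.51 in ATF3 KO and 2.39, 2.91, 3.0 and 2.84 in WT. ATF3 KO replicate 1 was as high as the upper WT arrays and WT replicate 1 as low as the ATF3 KO ones, and the difference was −0.26 (SE 0.18).

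Adgre1 has 2 probes. The one used for the gene gave 4.31, 3.86, 4.25 and 3.94 in ATF3 KO and 4.35, 4.37, 4.57 and 4.54 in WT, a difference of −0.37 (SE 0.13). The other gave 3.08, 2.53, 2.77 and 2.35 in ATF3 KO and 3.14, 3.18, 3.23 and 3.11 in WT, a difference of −0.49 (SE 0.17). On both probes the groups did not overlap, by 0.040 and 0.030. Vcam1 also has 2 probes, with differences of −0.22 (SE 0.13) on the one used and −0.31 (SE 0.16) on the other. For Adgre1 and Vcam1, the SE of the other probe came from a fit of all probes without the background filter. It is therefore not directly comparable with the SE of the probe used, which came from the main fit. The probe used gave 6.61, 6.19, 6.19 and 6.46 in ATF3 KO and 6.62, 6.36, 6.76 and 6.59 in WT, and the groups overlapped on both probes.

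**Figure D1:**
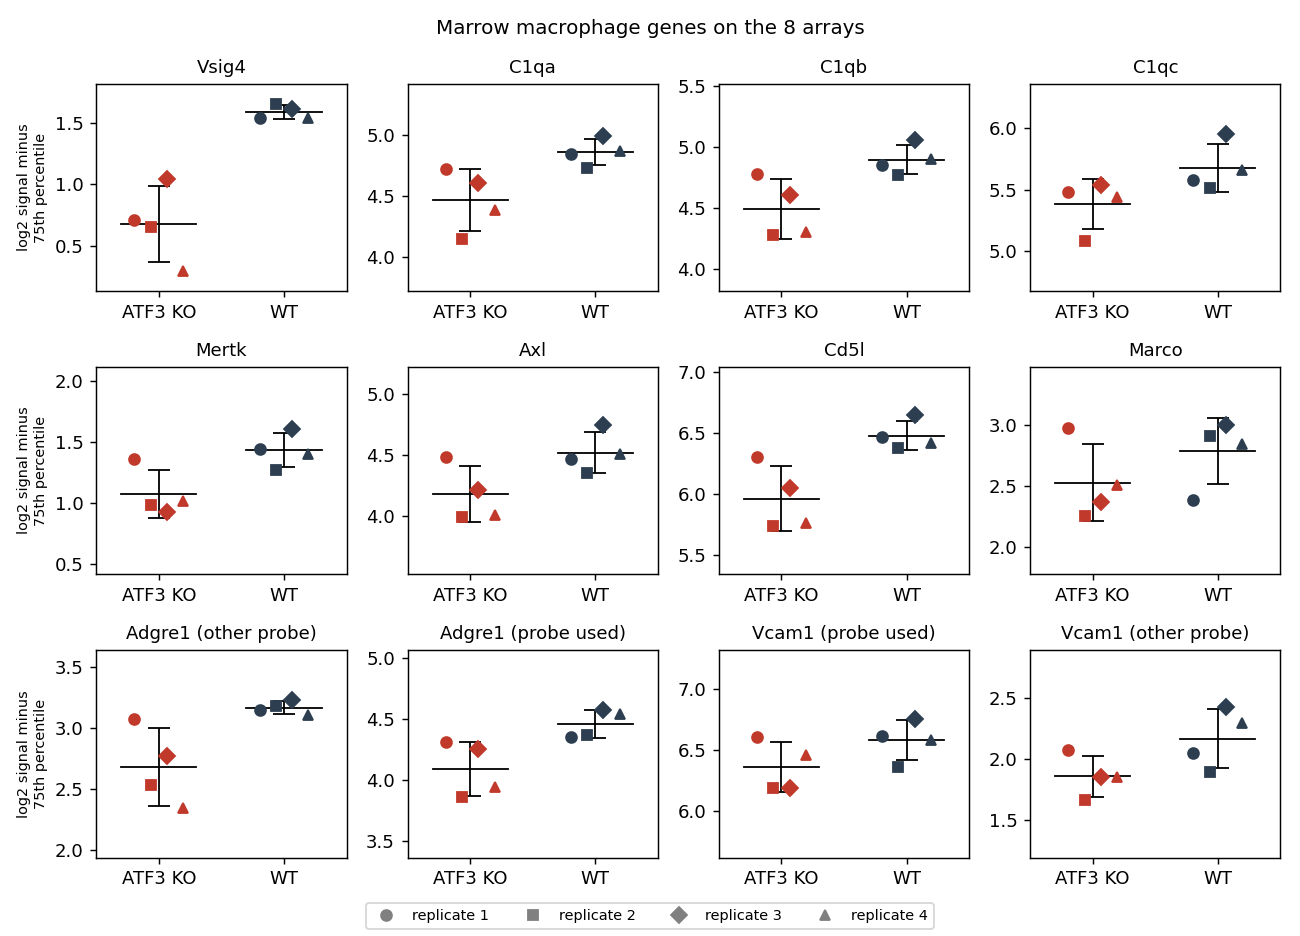
Each panel plots 1 probe, with the log2 processed signal minus the array's 75th percentile on the y axis (every panel spans the same range of log2 units) and ATF3 KO left of WT. Points are arrays, marker shape gives the replicate number, and black lines are the mean ± SD of 4 arrays. Vsig4 has a wide gap between the groups, whereas in the other panels the gap is narrow or absent.

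The 10 differences were all below 0 and all below the median of all genes, where 65.5% of genes tested were below 0 and 50% below that median by definition. Their median was −0.36, against −0.11 over all genes. In 4 of the 10 genes (Vsig4, C1qa, Cd5l and Adgre1) every ATF3 KO array lay below every WT array, against 10.9% of all genes, and in none did every ATF3 KO array lie above (4.13% of all genes). The rule used this contrast, so these figures only describe the set. Without Vsig4, the other 9 differences ran from −0.51 to −0.22. On the probe used for each gene, the spread was wider in ATF3 KO than in WT for all 10 genes, by 5.37 times for Vsig4. It was wider in ATF3 KO for 72.9% of all genes. The other Adgre1 probe also had the wider spread in ATF3 KO (SD 0.32, against 0.05 in WT). The other Vcam1 probe had the narrower one there (SD 0.17, against 0.24 in WT).

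The arrays did not take the same order for Vsig4 as for the other 9 genes. Each gene was centred on its mean over the 8 arrays, and the 9 others were averaged. Their mean deviation was 0.10, −0.40, −0.15 and −0.25 in ATF3 KO replicates 1 to 4, against 0.10, 0.06, 0.36 and 0.18 in WT. Replicate 1 of ATF3 KO therefore stood among the WT arrays for the 9 genes, while its Vsig4 deviation was −0.42. The genotype difference of this average was −0.35, so that of Vsig4 was more negative by 0.57. Vsig4 relative to the 9 others lay between −0.59 and 0.06 in ATF3 KO arrays and between 0.13 and 0.47 in WT arrays. Vsig4 was chosen for its difference, and this contrast within the set is likewise a description.

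**Figure D2:**
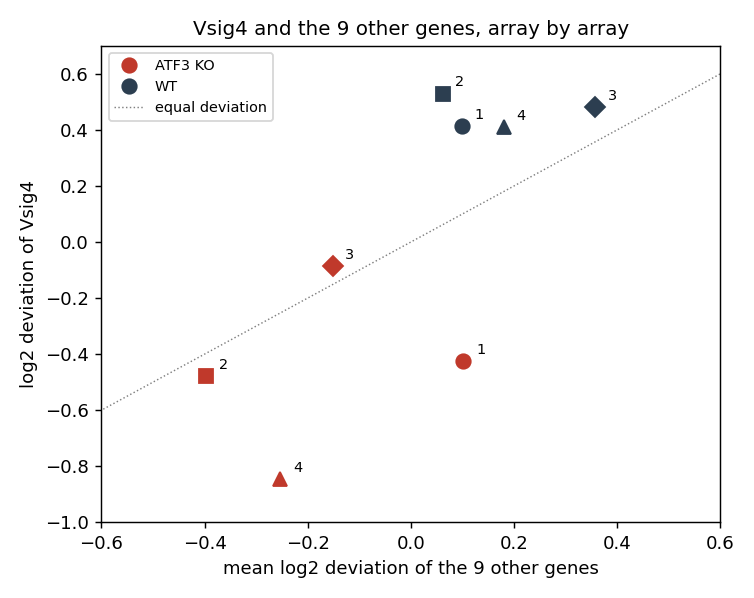
Each point is an array, numbered by replicate, with the mean log2 deviation of the 9 other genes on the x axis and that of Vsig4 on the y axis, both from their means over the 8 arrays. The dotted line marks equal deviation. ATF3 KO replicate 1 sits at 0.10 for the 9 genes and at −0.42 for Vsig4.

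Within genotypes, the genes differed in how closely they varied together. Deviations from the genotype means were correlated over the 8 arrays, which removes the genotype difference but leaves the scaling, the slide and the macrophage content that the arrays' genes share. Over all 45 pairs of the 10 genes, Pearson's r ran from −0.42 to 0.98, with a median of 0.63. Cd5l and C1qb had r = 0.98 (Spearman's rho = 0.98), and r = 0.96 without the 2 arrays farthest from the median, ATF3 KO replicates 1 and 2. C1qa and C1qb had r = 0.94 and Mertk and Vcam1 r = 0.90. C1qa, C1qb, Cd5l, Axl and Adgre1 were all correlated with each other at 0.87 or more. By gene, the median r with the other 9 was 0.86 for Axl, 0.84 for C1qa, 0.61 for Marco, 0.60 for Vcam1 and 0.33 for Vsig4, the lowest of the 10. Vsig4 ran from −0.42 with Vcam1 to 0.53 with Adgre1. Against the mean of the 9 others its r was 0.22 (rho = 0.29), and 0.31 without ATF3 KO replicate 1 and WT replicate 3. The corresponding r was 0.59 to 0.97 for each of the other 9 genes against the rest. The genes not in the set had a median r of 0.08 to 0.14 with those averages.

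**Figure D3:**
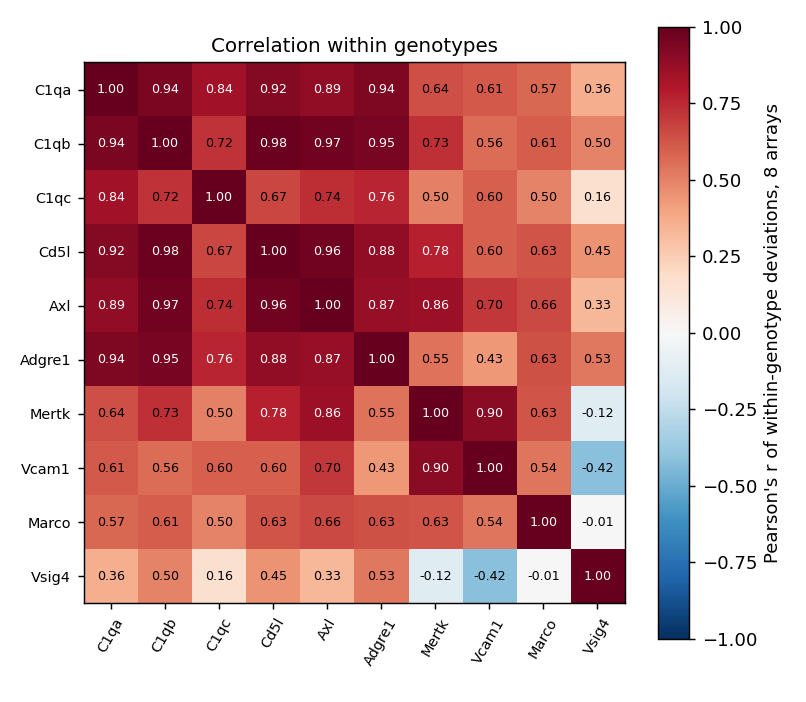
The matrix gives Pearson's r between genes (rows and columns) over the 8 arrays after subtracting each genotype's mean, on a colour scale from −1 to 1. C1qa, C1qb, Cd5l, Axl and Adgre1 form the block of highest values, and the Vsig4 row is the palest.

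Of all genes tested, the one whose within-genotype pattern was most like the mean of the 10 was Trf, which encodes transferrin, the iron carrier of plasma (r = 0.997 over 8 arrays, rho = 1, r = 0.99 without ATF3 KO replicate 1 and WT replicate 3). Cadm1, an adhesion molecule, followed at 0.984, then Man2a2, a mannosidase of glycan processing, at 0.979, Tmem86a at 0.977 and Ajm1 at 0.971. Their genotype differences were −0.26 for Trf, −0.25 for Cadm1, −0.13 for Man2a2, −0.33 for Tmem86a and −0.26 for Ajm1. The genes most like Vsig4 were Med15, a subunit of the Mediator complex, at 0.992 and Armcx3 at 0.988, and the other 3 of the nearest 5 have no gene symbol in the table used. None of the 9 other macrophage genes came near: Adgre1, the closest, ranked 6894. With 8 arrays and 21251 genes, high values of r arise in any search of this kind.

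Other genes of resident macrophages were listed apart from the 10. This list and those below were chosen with earlier results of these data known, so their counts are a description. The list held 20 genes, 18 of which were tested. Clec4f, a Kupffer cell receptor, was above background on no array, and Cd68 had no probe with a matching accession. None of the 18 passed limma's threshold over all genes (0.08% of all genes passed as lower and 0.367% as higher), while 12 had an unadjusted p under 0.05, all lower in ATF3 KO, against 14.5% of all genes as lower and 9.38% as higher. All 18 differences were below that of the median gene, from −0.66 to −0.13 with a median of −0.35. In 7 of them every ATF3 KO array lay below every WT array, and in none above (10.9% and 4.13% of all genes).

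Timd4, a receptor for phosphatidylserine on resident macrophages, averaged −0.27 ± 0.25 in ATF3 KO and 0.36 ± 0.22 in WT (SD, n = 4 each), a difference of −0.63 (SE 0.16, limma adjusted p = 0.107). Folr2, a folate receptor of tissue macrophages, averaged −0.37 ± 0.36 in ATF3 KO and 0.29 ± 0.06 in WT, a difference of −0.66 (SE 0.17, limma adjusted p = 0.109). Trem2, a lipid-sensing receptor, differed by −0.40 (SE 0.11, limma adjusted p = 0.123). Cd163, the haemoglobin receptor, had a difference of −0.65 (SE 0.20). Csf1r, the receptor of the macrophage growth factor that monocytes also carry, was at −0.16 (SE 0.12), close to the median of all genes. Folr2 passed without ATF3 KO replicate 1, Timd4 without ATF3 KO replicate 3, and Hmox1 with normexp background correction, 1 gene in each case.

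**Figure D4:**
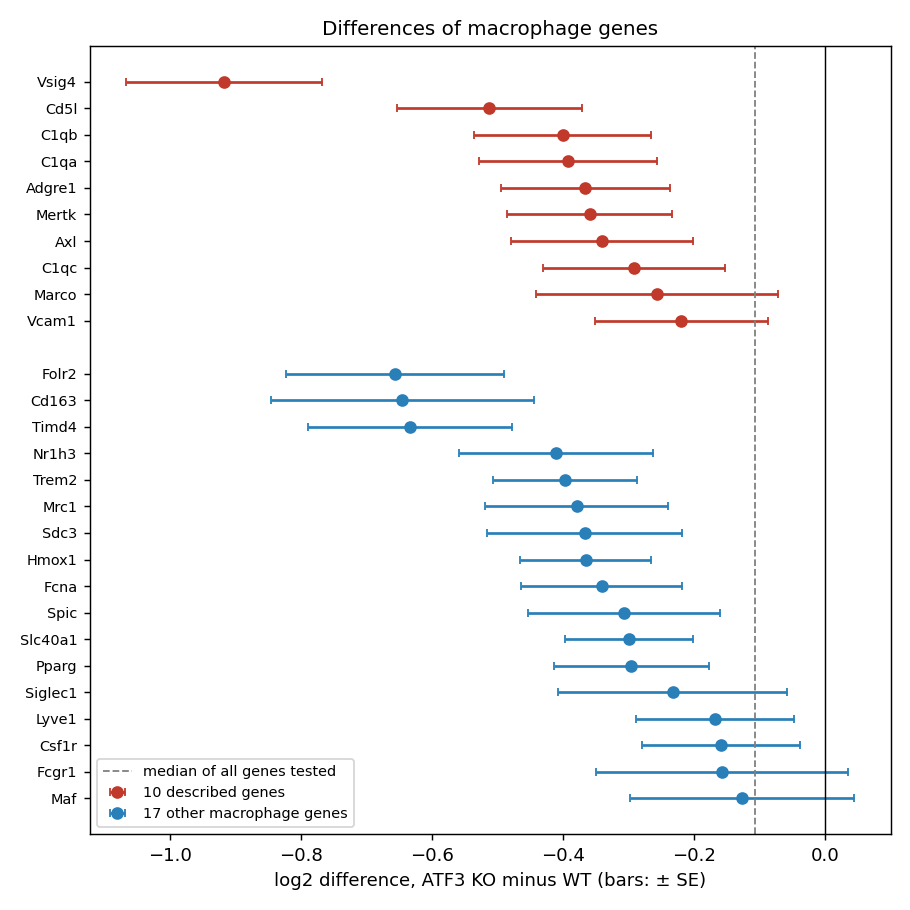
The x axis gives the log2 difference, ATF3 KO minus WT, with its limma standard error, for the 10 described genes (red, upper rows) and 17 of the 18 other macrophage genes tested (blue, lower rows). The dashed line is the median of all genes tested at −0.11. All points shown lie left of it, and Vsig4 lies farthest left at −0.92.

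The partners of the 10 genes were given in 2 further lists. Of 17 tested genes of the complement system, none passed limma's threshold, and their median difference was −0.18. At an unadjusted p under 0.05, 1 was higher and 5 lower, against 9.38% of all genes tested as higher and 14.5% as lower. The protease gene C1s1, whose product binds C1q, averaged −1.90 ± 0.36 in ATF3 KO and −1.04 ± 0.17 in WT (difference −0.85, SE 0.18, limma adjusted p = 0.0802), and passed with array weights and without ATF3 KO replicate 3. Serping1, the inhibitor of the C1 complex, had a difference of −0.67 (SE 0.18) and Itgax, a chain of a receptor for iC3b, one of −0.51 (SE 0.13). Itgam, a chain of the iC3b receptor that is abundant on neutrophils, was at 0.36 (SE 0.13). Of 17 tested genes for engulfment and for ligands of the TAM receptors and Vcam1, again none passed, and the median was −0.27. In this list 7 were lower at an unadjusted p under 0.05, against 14.5% of all genes. Lrp1 (−0.54, SE 0.12), the integrin gene Itgb3 (−0.46, SE 0.11) and Gas6, the ligand of Axl and Mertk (−0.46, SE 0.13), led the list, followed by Scarb1 at −0.39. With normexp background correction Lrp1, Itgb3 and Gas6 passed, as did Serping1. Tyro3, the other TAM receptor, was above background on no array. Itga4, whose product binds Vcam1, was at −0.29 (SE 0.09).

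Markers of the other cells that a Ly6G+ fraction can hold were summed as signal relative to each array's 75th percentile, over the tested genes of each list. Such a sum leans on its brightest probe: Ly6c1 made up 94.1 to 96.4% of the monocyte sum, Hba-a1 86.5 to 93.3% of the erythroid sum and Siglech 74.1 to 82.5% of the dendritic sum. Jchain made up 12.8 to 43.0% of the B lineage sum. The median difference of a list does not have this limit. Beside the counts at an unadjusted p under 0.05 given below stand 14.5% of all genes tested as lower and 9.38% as higher. The 10 macrophage genes summed to 236 to 329 in ATF3 KO and 319 to 400 in WT, and the 18 others to 355 to 429 in ATF3 KO and 452 to 513 in WT. Monocyte markers summed to 873 to 1029 in ATF3 KO and 818 to 1172 in WT, with 0 of 9 past the threshold, 1 lower at an unadjusted p under 0.05 and a median difference of −0.01. Stromal and endothelial markers summed to 72.5 to 123 in ATF3 KO and 132 to 174 in WT, with 0 of 14 past the threshold. Of these, 6 were lower at an unadjusted p under 0.05. Their median was −0.35, which ran from −0.48 to −0.20 over the alternatives, against −0.41 to −0.20 for the 18 macrophage genes. Pdgfrb, which met the filter only through WT, is in the sum, among the 6, in this median and in the ends of its range. Marrow stroma and endothelium also make Vcam1 and Axl. Erythroid markers summed to 1918 to 2499 in ATF3 KO and 1761 to 2162 in WT (0 of 11 past the threshold, none with an unadjusted p under 0.05). Their median was 0.11, but −0.13 without WT replicate 4. B lineage markers summed to 110 to 124 in ATF3 KO and 54.9 to 79.7 in WT. Of them 0 of 11 passed the threshold, 9 were higher at an unadjusted p under 0.05, and the median was 0.58. Dendritic cell markers summed to 561 to 804 in ATF3 KO and 412 to 537 in WT, with a median of 0.28. Of these 0 of 9 passed, and 5 were higher at an unadjusted p under 0.05: Cd74, H2-Eb1, Ciita, H2-Ab1 and Siglech. The 1 lower at that cut was Zbtb46 (−0.45, SE 0.14), above background on 2 ATF3 KO arrays and 4 WT arrays. Whether B cells account for any of the 5 was not tested. Under other processing, the stromal genes Cxcl12, Igfbp5 and Ibsp passed as lower with normexp background correction and Pdgfrb without ATF3 KO replicate 3. Pdgfrb was above background on 4 WT arrays and 0 ATF3 KO arrays, so it met the filter only through WT and its call is no support. With the filter on all 8 arrays, which leaves Pdgfrb out, the stromal median was −0.26. Of the B lineage, Jchain passed as higher with normexp, with the filter on all 8 arrays, with the deposited table and without WT replicate 2. Cd79b, Mzb1 and the dendritic cell list's Cd74 passed as higher with the deposited table. The 12 neutrophil markers tested had sums of 10654 to 12945 in ATF3 KO and 8700 to 11009 in WT, none past the threshold and 5 higher at an unadjusted p under 0.05. Their median difference was 0.19, but −0.004 with quantile normalization and −0.02 with the deposited table. Ly6g itself had no probe with a matching accession. The part of these cells in the differences of the 10 genes was not tested.

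The scaling moved the size of the differences and not their side. With the 75th percentile taken over probes above background on all arrays, the median of all genes moved to 0.04 and that of the 10 genes to −0.21. Relative to all genes, the median of the 10 ran from −0.38 to −0.19 over the 17 alternatives, and each of the 10 genes stayed below the median of all genes in all 17.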

How the data were processed

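RNA of 8 samples was measured on single-colour Agilent arrays. The deposited scanner files hold spot intensity from Agilent Feature Extraction, whose version the file headers give as 10.9.1.1 and the submitters' processing notes as 10.10. The authors' processed signal was detrended and background-subtracted within each array, per the file headers. The deposited series table holds log2 values, whose normalization and centring are not stated. Each of its columns correlated best with the log2 median signal of its own array (r from 0.998 to 1), with column medians from 6.13 to 6.15, so that its direction is that of signal. Whether and how arrays were scaled to each other stays unknown, and it served as an alternative.

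Control spots and outlier spots (98 to 159 per array) were left out and the spots of a probe averaged. Each array's log2 processed signals were set relative to their 75th percentile, taken over 55681 probes, because 50.02% of values exceeded background. A probe needed to be above background on 4 of 8 arrays (27948 were), and a gene was represented by its probe of highest mean. Symbols came from unversioned RefSeq accessions in the GRCm38.p6 table (27235 probes). All 10 members passed the filter. ATF3 KO minus WT was fitted with limma 3.58.1 in R 4.3.3, with no covariate, and a gene passed at a p under 0.05 after Benjamini-Hochberg adjustment over all genes. The fit was tested on simulated data, where it recovered 30% of 1.5-fold changes and 88% of 2-fold changes. The simulation gave both genotypes the same spread per gene, whereas the spread was wider in ATF3 KO for 72.9% of all genes. These rates may therefore not hold for the data, and they set no upper limit on the difference of a gene that did not pass. Jchain, for 1, did not pass at a log2 difference of 1.81.

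Members and gene lists were chosen with earlier results of these data known. The genes named are all members, Atf3, up to 4 genes of smallest p in each list and, for likeness, the 5 genes of highest r. The lists of other cell types are given as counts, sums and medians, and some list genes outside the rule (Csf1r, Cd163, Itgam, Itga4, Cxcl12, Igfbp5, Ibsp, Pdgfrb, Jchain, Cd79b, Mzb1, Cd74, H2-Eb1, Ciita, H2-Ab1, Zbtb46, Ly6c1, Hba-a1, Siglech, and Slc40a1 and Spic under other observations) were named after their values were seen. Values of 2 list genes are not reported here. No 2 arrays held the same values.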

Additional observations from a re-analysis of the deposited data

How the results depend on the processing

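All 10 differences stayed below 0 under the 17 alternatives, and the median of the 10 kept within the spread between arrays, from −0.45 to −0.29 without each array in turn. The call of Vsig4 held in 5 of the 17, with the difference between −1.04 and −0.65. It was lost with quantile normalization (31 genes called in all, 22 higher and 9 lower), with the percentile over probes above background on all arrays (44 in all), with no filter on dim probes (10 in all, 4 higher and 6 lower) and with every kept probe tested (58 in all), where 0 members passed. With the main processing 95 genes passed, 78 higher and 17 lower. With normexp background correction 251 passed (156 higher and 95 lower), 2 of them members, Vsig4 and Cd5l, and 1 other macrophage gene, Hmox1. With the log2 values the authors deposited, 149 passed, 1 of them a member, Vsig4. With the replicate number as a block 0 members passed and 72 genes in all. Same-numbered samples had low correlations of their deviations (r from −0.26 to 0.20), and only for number 1 was the same number the best match. Such values cannot settle whether the numbers pair the samples. The cause of these changes was not tested. With no filter and with every probe the number tested was larger, and the SE of Vsig4 moved too. It was 0.1647 with no filter and 0.1503 with every probe, against 0.1495 with the main processing. Leaving out each array gave 9 to 234 genes, 0 to 1 members and 0 to 1 other macrophage genes. Dropping ATF3 KO replicate 2, 3 or 4 gave 20, 234 and 29 genes in that order, and dropping WT replicate 1, 2, 3 or 4 gave 9, 36, 13 and 59. Vsig4 passed in 1 of these 8 fits, that without ATF3 KO replicate 3. The stromal median, with Pdgfrb included, was −0.23 without ATF3 KO replicate 2, −0.47 without ATF3 KO replicate 4 and −0.48 without WT replicate 3. Among the lists of other cells, the monocyte median relative to all genes ran from −0.02 to 0.22 over the alternatives and the erythroid one from −0.02 to 0.38. The difference of Vsig4 was −0.74 with normexp and −0.65 with the deposited values.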

Other observations

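Of the 18 other macrophage genes, 4 known for the handling of haem and iron were also read array by array; they were picked after their values were seen. Hmox1, haem oxygenase, gave 6.61, 6.49, 6.56 and 6.65 in ATF3 KO and 6.97, 6.89, 7.11 and 6.80 in WT on the log2 scale relative to each array's 75th percentile, with no overlap (difference −0.37, SE 0.10, limma adjusted p = 0.122, and 0.0407 with normexp background correction, the only alternative under which it passed). Slc40a1, the iron exporter ferroportin, gave 6.15, 5.88, 5.98 and 5.89 in ATF3 KO and 6.22, 6.34, 6.31 and 6.23 in WT, also without overlap (−0.30, SE 0.10). Spic, the transcription factor of iron-recycling macrophages, gave 4.41, 3.99, 4.55 and 4.14 in ATF3 KO and 4.54, 4.41, 4.82 and 4.55 in WT, and the groups overlapped (−0.31, SE 0.15). Cd163, the haemoglobin receptor, gave 0.01, −0.32, −0.56 and −0.79 in ATF3 KO and 0.14, −0.06, 0.67 and 0.16 in WT, and the groups overlapped (−0.65, SE 0.20). Slc40a1, Spic and Cd163 passed under none of the 17 alternatives.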
